A study of Phalaenopsis aphrodite with 54 samples.

Results

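PATC149247 and PATC147735 are transcript contigs of *Phalaenopsis aphrodite* that the study annotated as a putative zinc finger protein and as an anther-specific proline-rich protein. They were picked by name, 2 of the 43662 contigs with a probe on the array, because both gave a higher signal in the petal than in the lip. Their petal and lip values are therefore given as a description without a test, and tests were run only where no petal or lip array is compared. PATC149247 had 1 probe and PATC147735 had 2 probes, each spotted 2 times, and the brighter probe of PATC147735 was used unless the other is named.

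The series held 54 custom arrays, each hybridised with 1 sample labelled with Cy3, a green fluorescent dye. The hybrid orchid Sogo Yukidian 'V3' (tetraploid, here V3) gave mature sepal, petal, lip, column, pollinia and pedicel, and whole flowers. It also gave flowers collected 1, 3, 8 and 15 days after pollination (DAP), small buds under 1 cm and large buds over 1 cm. The diploid species *P. aphrodite* gave leaf, root, flower stalk, inflorescence, young inflorescence, bud and flower. These 20 conditions made up 41 arrays of amplified RNA, 2 per condition and 3 for the leaf, whereas 13 further arrays held unamplified RNA of leaf, root and flower of both genotypes.

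Zinc finger proteins fold around bound zinc ions, and many of them bind DNA or RNA and regulate other genes. Proline-rich proteins of plants are commonly secreted into the cell wall, and several anther-specific members are known from the tapetum, the layer that nourishes pollen. In the orchid flower the sepals and the lateral petals surround a modified petal, the lip. Stamen and style are fused in the column, which carries the pollen in compact pollinia. The pedicel sample of the study included carpel and ovary.

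Between 71.2% and 80.7% of the spots of an amplified array and between 73.7% and 82.7% of those of an unamplified array were well above background, as flagged by the scanner software, and no spot was saturated. The 75th percentile of the intensities ranged from 2335 to 8107 on amplified and from 446.2 to 1077 on unamplified arrays. In 14 of 20 amplified and 5 of 6 unamplified conditions, the probe means of the arrays of a condition differed by no more than the replicate spots of 1 array, so they may be repeats of 1 sample. That ratio sets means of 2 spots against single spots. With single spots on both sides the ratio ranged from 1.01 to 2.92 over amplified and from 1.02 to 1.43 over unamplified conditions. A ratio near 1, such as 1.01 for V3 flower, does not tell the arrays from repeats of 1 sample. The study names separate collections for the floral organs. The p-values below measure the spread between arrays, which may be technical, and the adjusted p with such arrays counted as 1 sample is given as well. Conditions whose arrays were set to the floor add almost no spread to the fit, which makes the SE and p-values of that contig too small. A call needed an adjusted p under 0.05. More of the contigs tested passed it than failed it in all 19 comparisons on amplified arrays (82.1% at 1 DAP against the V3 flower) and in 3 of 9 on unamplified arrays, so the share of contigs called that also differed by over 4-fold, a limit added here from the study, is given where both members exceed it.

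For conditions whose arrays may be repeats, the value of each array is given in place of a mean with its SD. The contigs tied to lip, column and pollinia were highest in those tissues, although the study had chosen them on the same arrays. The log2 level of the lip contig PaAGL6-1 was 16.12 in the lip, with no signal well above background in the petal. That of the column contig PaAG-2 was 16.33 in the column, and that of the pollinia contig PaMdS-1 was 15.61 in the pollinia. The other organ contigs were less particular. The pedicel contig PaAG-4 was at 11.30 in the pedicel but at 12.05 in flowers at 15 DAP. PaPI-1, taken for perianth and column, was at 16.16 in the sepal and also at 15.99 in the pedicel.

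Both contigs gave strong signals in petal and sepal and a far weaker one in the lip. The processed intensity of PATC149247 in the petal was 44000 on one array and 26200 on the other, and in the lip it was 1210 and 951. In the sepal it was 29200 and 23300. PATC147735 gave intensities of 63100 and 43900 in the petal, 1870 and 1680 in the lip, and 45600 and 39900 in the sepal. Both petal arrays and both sepal arrays thus lay far above both lip arrays, while petal and sepal overlapped across the scan batches for each contig after quantile normalisation.

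On the normalised log2 scale used from here on, PATC149247 was at 15.02 ± 0.36 in the petal, 14.65 ± 0.17 in the sepal and 10.19 ± 0.13 in the lip (SD, n = 2 each). PATC147735 was at 15.58 ± 0.26, 15.40 ± 0.097 and 10.86 ± 0.011 in the same organs (SD, n = 2 each). The difference between petal and lip that had led to the choice of these contigs was 4.83 for PATC149247, or 28.4-fold, and 4.72 for PATC147735, or 26.3-fold. They stood at ranks 43 and 48 of 31248 contigs ordered by this difference. The petal and lip arrays were scanned in 2 batches, and within them the difference was 4.99 and 4.67 for PATC149247 and 4.90 and 4.54 for PATC147735. Petal minus sepal was 0.37 for PATC149247 and 0.18 for PATC147735. Within the scan batches it was 0.51 and 0.23 for PATC149247, and 0.30 and 0.06 for PATC147735. With the 75th percentile in place of quantile normalisation, petal minus sepal was 0.66 and 0.58, both petal arrays lay above both sepal arrays, and petal exceeded lip 37.6-fold and 35.2-fold.

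**Figure D1:**
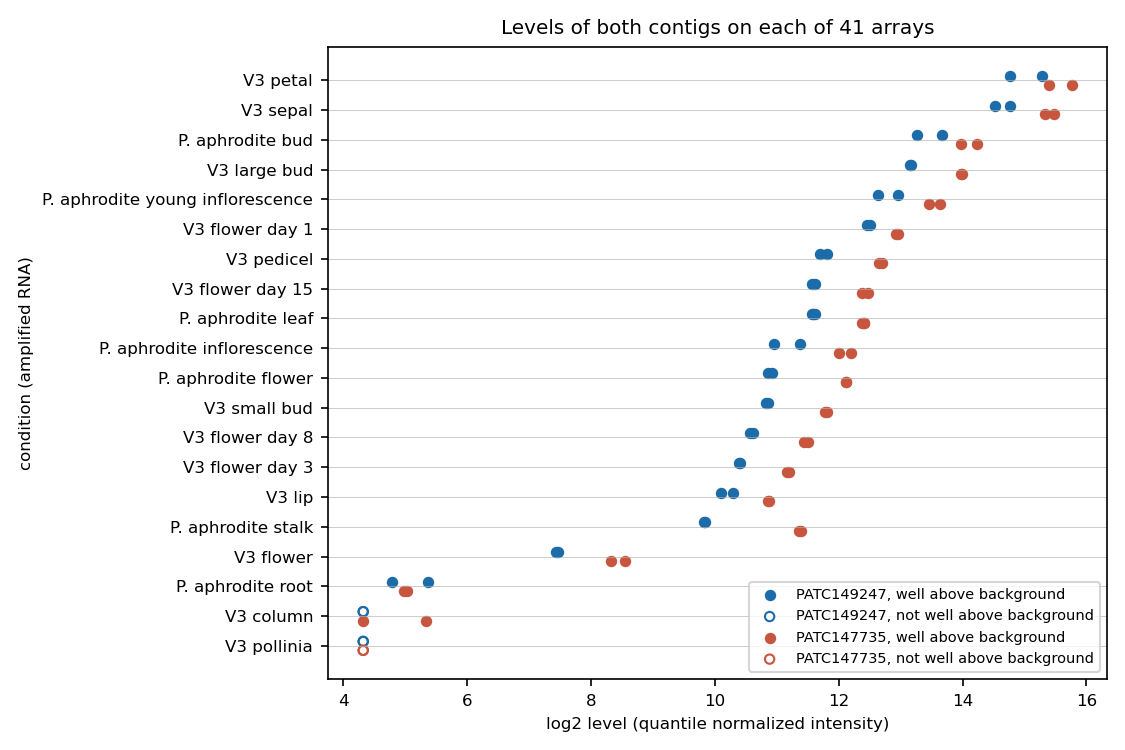
Normalised log2 level (horizontal axis) of PATC149247 and PATC147735 on each of the 41 arrays of amplified RNA, by condition (vertical axis, ordered by the mean of PATC149247). Filled points were well above background and open points were not. Petal and sepal lie at the top, the lip 15th and 16th of 20, and V3 flower, root, column and pollinia at the bottom.

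Over the 20 conditions both contigs ranged from the petal level down to the intensity floor of 20, which corresponds to a log2 level of 4.32. Below petal and sepal came the *P. aphrodite* bud (13.46 ± 0.28 for PATC149247 and 14.10 ± 0.18 for PATC147735), the V3 large bud, and the young inflorescence (12.80 ± 0.23 and 13.54 ± 0.12; SD, n = 2 each). The middle of the order held flowers at 1 DAP, pedicel, flowers at 15 DAP, leaf, inflorescence, *P. aphrodite* flower and V3 small bud. Flowers at 8 and 3 DAP, the stalk and the lip followed. V3 flower stood apart below these at rank 17, and root, column and pollinia came last. The first 9 conditions had the same order for both contigs.

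Several neighbours in this order did not differ beyond the spread of their arrays. For PATC149247 these were petal and sepal (in quantile normalised values), 15 DAP and leaf, and *P. aphrodite* flower and V3 small bud. For PATC147735 they were petal and sepal, *P. aphrodite* bud and V3 large bud, 15 DAP and leaf, *P. aphrodite* flower and inflorescence, root and column, and column and pollinia. Column and pollinia were both at the floor for PATC149247.

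The SPM measure, the intensity in 1 tissue relative to the length of the vector over all tissues and at most 1, was 0.790 in the petal and 0.603 in the sepal for PATC149247 over root, leaf and the 6 organs. For PATC147735 it was 0.746 and 0.653. Whether the petal passes a limit of 0.8 depended on the scaling: with each array scaled by its 75th percentile, as in the table of the authors, SPM in the petal was 0.844 for PATC149247 and 0.827 for PATC147735. The lip had 0.0274 and 0.0281, below the leaf with 0.0717 and 0.0818, after quantile normalisation.

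Sepals were compared with the organs outside the perianth. The column gave intensities of 5.80 and 7.03 for PATC149247 and of 18.8 and 23.6 for PATC147735, and the pollinia between 3.11 and 4.26 for both. PATC149247 was not well above background on any column or pollinia array, whereas PATC147735 passed on both column arrays but lay at or close to the floor. Every sepal array was above every column and pollinia array.

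By limma with Benjamini-Hochberg adjustment, sepal exceeded column by at least 1290-fold for PATC149247 (adjusted p = 5.30e-25, and 2.52e-07 with repeat arrays counted as 1 sample). Such bounds hold only for the floored and quantile normalised values. For PATC147735 the difference was 10.57 ± 0.176 (SE), with adjusted p = 1.76e-24 and 2.80e-08. Of all contigs tested, 4.64% were called higher in sepal by over 4-fold, and 1 of the 2 column values of PATC147735 was raised to the floor, so its difference is limited by the floor (10.1 to 11.1 when an array is left out). The bounds against pollinia were at least 1290-fold and at least 2160-fold (adjusted p = 4.40e-26 and 5.97e-26, with repeats as 1 sample 2.66e-08 and 1.38e-09), where 19.8% of contigs were called higher by over 4-fold. These sizes depend on the processing at the dim end: with the 75th percentile the differences against pollinia were 553-fold and 902-fold, and with normexp 410-fold and 593-fold. Against column they were 828-fold for PATC149247 and 1250-fold for PATC147735 with the 75th percentile, and 328-fold and 412-fold with normexp. The name of PATC147735 refers to the anther, and its signal in the pollinia, the pollen-bearing organ of this flower, was not well above background on either array.

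The pedicel held both contigs at intermediate levels, with 11.70 and 11.81 for PATC149247 and 12.65 and 12.70 for PATC147735. Sepal exceeded pedicel 7.44-fold for PATC149247 (log2 2.90 ± 0.161 (SE), adjusted p = 6.94e-14, with repeats as 1 sample 0.000184). For PATC147735 it was 6.62-fold (2.73 ± 0.176, adjusted p = 1.19e-12 and 1.81e-05). The share of contigs called higher in sepal by over 4-fold was 2.79%. Within the scan batch shared by sepal and pedicel the differences were 2.83 and 2.68.

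The whole V3 flower was low in both contigs. The labels do not give the age of these flowers or the organs included, and this bears on each comparison with them. PATC149247 gave intensities of 143 on both flower arrays, with levels of 7.47 and 7.43. PATC147735 gave 310 and 269, with levels of 8.54 and 8.32. All of these lay below every array of sepal, petal, lip and pedicel and above every array of column and pollinia. By condition means, 33.7% of 28049 contigs were lower in the flower than in sepal, petal, lip and pedicel, and 2.65% by over 4-fold. Flower minus the lowest of these organs was -2.75 for PATC149247 and -2.43 for PATC147735 on the log2 scale.

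In the tests against sepal and pedicel, organs that had not been used to choose the contigs, the flower was 147-fold below sepal for PATC149247 (adjusted p = 4.40e-22, with repeats as 1 sample 9.33e-07). It was 125-fold below for PATC147735 (adjusted p = 4.57e-21 and 1.05e-07), while 6.57% of contigs were called lower by over 4-fold. Against pedicel it was 19.8-fold and 18.9-fold lower (adjusted p = 1.11e-17 and 8.40e-17, with repeats as 1 sample 2.81e-05 and 2.32e-06), with 8.64% called lower by over 4-fold. These 2 comparisons were added after the values had been seen.

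Of the organ contigs, PaAGL6-1 was at 15.13 on the flower arrays, PaPI-1 at 16.12, PaAG-2 at 14.04 and the pedicel contig PaAG-4 at 10.44. The pollinia contig PaMdS-1 was at 5.63, near the floor. PaPI-1 was also high in the pedicel, at 15.99, and none of these contigs was particular to sepal or petal. Whether the flower samples held those organs therefore cannot be read from them. The flower arrays were scanned in a batch that held no organ array, so for amplified RNA the scan batch and the condition cannot be told apart. The unamplified arrays of V3 flower, scanned in another batch, are described below. In whole tissues, fewer cells of a type and less RNA per cell cannot be told apart.

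**Figure D2:**
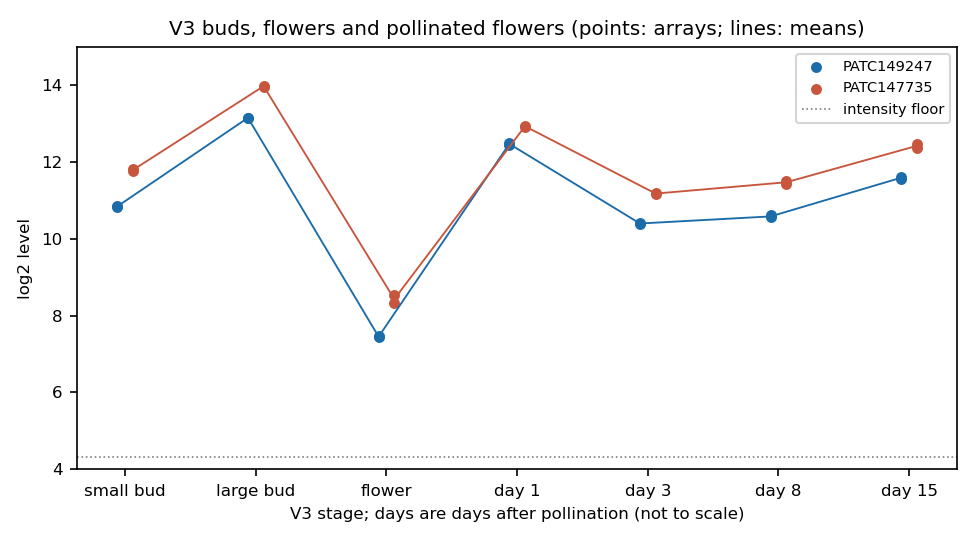
Normalised log2 level (vertical axis) of both contigs in V3 buds, whole flowers and flowers 1, 3, 8 and 15 days after pollination (horizontal axis, not to scale), with points for arrays and lines for means. The flower at 7.45 and 8.43 is the lowest stage, and the mean of every other stage is 10.40 or above.

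In the V3 bud series both contigs were higher in large than in small buds. PATC149247 was at 10.83 and 10.86 in small buds and at 13.16 and 13.15 in large buds. PATC147735 was at 11.81 and 11.78, and at 13.97 and 13.99. All 4 bud arrays shared a scan batch, and the groups did not overlap.

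The small bud was 4.96-fold lower for PATC149247 (log2 -2.31 ± 0.161 (SE), adjusted p = 8.08e-12, with repeats as 1 sample 0.00202) and 4.55-fold lower for PATC147735 (-2.19 ± 0.176, adjusted p = 1.10e-10 and 0.000228). Only 1.98% of contigs were called lower in small buds by over 4-fold. The large bud in turn exceeded the flower 52.2-fold and 46.8-fold (adjusted p = 2.98e-20 and 3.01e-19, with repeats as 1 sample 5.37e-06 and 4.75e-07), where 10.6% of contigs were called higher by over 4-fold. Buds and flowers were scanned in different batches, which cannot be told apart from the stage.

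Pollinated flowers were compared with the whole V3 flower. At 1 DAP PATC149247 was at 12.45 and 12.50 and PATC147735 at 12.92 and 12.95. At 3 DAP they had 10.41 and 10.39, and 11.17 and 11.19. At 8 DAP they had 10.56 and 10.61, and 11.44 and 11.51, and at 15 DAP 11.62 and 11.57, and 12.38 and 12.47. The signal was thus highest at 1 DAP and lowest at 3 DAP, and no array of a pollinated flower overlapped the flower arrays.

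At 1 DAP the flower level was exceeded 32.6-fold by PATC149247 (log2 5.03 ± 0.161 (SE), adjusted p = 6.56e-19, with repeats as 1 sample 1.63e-05). PATC147735 exceeded it 22.7-fold (4.50 ± 0.176, adjusted p = 3.17e-17 and 2.37e-06), and 6.04% of contigs were called higher by over 4-fold. A larger rise was measured for 0.435% and 0.670% of the contigs. The excess was 7.73-fold and 6.73-fold at 3 DAP (adjusted p = 2.38e-14 and 5.02e-13; 7.72% called higher by over 4-fold). It was 8.80-fold and 8.27-fold at 8 DAP (adjusted p = 6.76e-15 and 6.37e-14; 8.88%), and 17.7-fold and 15.9-fold at 15 DAP (adjusted p = 2.03e-17 and 2.44e-16; 11%). With repeats as 1 sample the adjusted p from 3 to 15 DAP lay between 2.65e-06 and 0.000222.

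These 4 comparisons share the 2 flower arrays, whose low values enter each of them, and no pollinated flower was scanned in the batch of the flower arrays. The steps within the series do not use those arrays and were added after the values had been seen. From 1 to 3 DAP PATC149247 fell 4.22-fold and PATC147735 fell 3.37-fold (adjusted p = 8.42e-11 and 7.20e-09, with repeats as 1 sample 0.00427 and 0.00101), with 31.4% of contigs called lower. From 3 to 15 DAP they rose 2.29-fold and 2.36-fold (adjusted p = 4.08e-07 and 8.48e-07, with repeats 0.0213 and 0.00188), with 37.9% called higher. Within the scan batch shared by 3 and 15 DAP this rise was 1.21 and 1.23 on the log2 scale. No 3 DAP array was scanned in the batch of the 1 DAP arrays. For the fall from 1 to 3 DAP, scan batch and time therefore cannot be told apart.

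In *P. aphrodite* the contigs were present in every aerial tissue. PATC149247 was at 10.85 and 10.92 in the flower, at 11.56, 11.62 and 11.58 in the leaf, and at 5.36 and 4.78 in the root. PATC147735 was at 12.11 and 12.12 in the flower, at 12.41, 12.38 and 12.41 in the leaf, and at 4.98 and 5.02 in the root. The stalk held 9.83 and 9.84, and 11.36 and 11.39. Root arrays lay far below all others, with intensities from 25.5 to 44.8.

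The flower exceeded the root 56.5-fold for PATC149247 and 139-fold for PATC147735 (adjusted p = 1.64e-20 and 1.49e-21, with repeats as 1 sample 4.04e-06 and 9.70e-08), where 8.41% of contigs were called higher by over 4-fold. The leaf exceeded the root 91.4-fold and 169-fold (adjusted p = 3.18e-22 and 1.33e-22, with repeats 3.17e-06 and 1.33e-07; 6.28% called higher by over 4-fold), a comparison added after the values had been seen. Flower and leaf were closer. PATC149247 was lower in the flower 1.62-fold (log2 -0.69 ± 0.147 (SE), adjusted p = 0.00014), a call that was lost with repeats as 1 sample (adjusted p = 0.110). For PATC147735 the difference was -0.29 ± 0.160 (adjusted p = 0.0958 and 0.252). Of all contigs 40.8% were called lower in the flower without regard to fold, so the call of PATC149247 is near the background. Root, leaf and flower were scanned in 3 batches, which cannot be told apart from the tissue.

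Both contigs were lower in the flower than in the bud of *P. aphrodite*. The flower was below the bud 5.96-fold for PATC149247 and 3.97-fold for PATC147735 (adjusted p = 3.31e-13 and 2.32e-10, with repeats as 1 sample 0.000171 and 4.77e-05), and 39.3% of contigs were called lower. Within the scan batch they shared, the differences were -2.77 and -2.11 on the log2 scale. The inflorescence was at 11.37 and 10.95 for PATC149247 and at 12.20 and 12.01 for PATC147735, and each array lay below both arrays of the young inflorescence. The difference was 3.11-fold and 2.71-fold (adjusted p = 3.54e-09 and 1.25e-07, with repeats 0.00108 and 0.000172), with 30.7% called lower. It was -1.59 and -1.43 in the first and -1.69 and -1.45 in the second of the scan batches that held both, a comparison added after the values had been seen.

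The 2 genotypes differed in the whole flower. On amplified arrays V3 flower was below *P. aphrodite* flower 10.9-fold for PATC149247 (log2 -3.44 ± 0.161 (SE), adjusted p = 1.74e-15, with repeats as 1 sample 0.000144). For PATC147735 it was 12.8-fold below (-3.68 ± 0.176, adjusted p = 2.43e-15 and 8.11e-06). The share of contigs called lower in V3 by over 4-fold was 4.49%, and the scan batch cannot be told apart from the genotype here.

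The unamplified arrays of leaf and flower shared a scan batch and gave the same direction. In V3 flower the intensities were 15.9 and 6.93 for PATC149247 and 15.9 and 12.4 for PATC147735, none of them well above background. The other probe of PATC147735 passed as well above background on 1 of these arrays, at 64.2. In *P. aphrodite* flower the intensities were 277 and 258, and 256 and 315. V3 leaf had 475 and 503, and 524 and 408. *P. aphrodite* leaf ranged from 528 to 585 and from 424 to 512. V3 flower was far below leaves of both genotypes and below the flower of *P. aphrodite* for both contigs. With the probes used, the flower of *P. aphrodite* lay below the leaves as well for both contigs, without overlap in intensity. The other probe of PATC147735 did overlap, with 214 and 284 in *P. aphrodite* flower and 177 to 260 in its leaf. Intensities are not scaled, and the 75th percentile was 446.2 and 483.3 on these flower arrays against 606.7 to 788.1 on the leaf arrays. After normalisation the highest *P. aphrodite* flower array of PATC147735 was at 8.72 and the lowest leaf array at 8.73.

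V3 flower was at least 16.9-fold below *P. aphrodite* flower for PATC149247 (adjusted p = 2.60e-08). For PATC147735 the difference was -4.30 on the log2 scale with the brighter probe and -3.32, or 9.97-fold, with the other (adjusted p = 3.65e-09 and 0.000221). The share of contigs called lower by over 4-fold was 3.14%. V3 flower was at least 21.7-fold below V3 leaf for PATC149247 (adjusted p = 5.01e-09; 5.18% called lower by over 4-fold). For PATC147735 this difference was -4.51 with the brighter probe but -2.46, or 5.51-fold, with the other (adjusted p = 9.06e-10 and 0.00137). With normexp in place of the floored intensities the differences of PATC149247 were 5.76-fold and 6.82-fold. In leaves the difference between V3 and *P. aphrodite* was -0.15 ± 0.155 and 0.04 ± 0.123 (SE; adjusted p = 0.521 and 0.857, with repeats as 1 sample 0.989 and 0.995), where 27.6% of contigs were called in either direction. The change from leaf to flower differed between V3 and *P. aphrodite* by -3.93 ± 0.230 and -4.33 ± 0.182 (adjusted p = 7.48e-07 and 7.86e-08; -3.18 with the other probe of PATC147735, adjusted p = 0.00321), with 3.42% of contigs called lower by over 4-fold. The change from root to flower differed by -4.08 ± 0.240 and -4.30 ± 0.190 (adjusted p = 8.59e-07 and 1.22e-07; -2.95 with the other probe, adjusted p = 0.00729; 3.58% called lower by over 4-fold). The probes used were at the floor on the root arrays, so this second difference repeats that of the flowers. V3 flower was also at or near the floor, which limits both differences. The floored levels of PATC147735 had an SD of 0.0037 in V3 flower and 0.00075 in *P. aphrodite* root, so its SE and adjusted p are too small. With normexp the differences were -2.33 and -2.62 from leaf to flower and -2.58 and -2.51 from root to flower. With repeat arrays as 1 sample only 1 residual degree of freedom remained, and none of these calls held (adjusted p from 0.163 to 0.585).

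In *P. aphrodite* without amplification the difference of flower from leaf was -0.51 ± 0.155 for PATC149247 (SE; adjusted p = 0.014) and -0.18 ± 0.123 for PATC147735 (adjusted p = 0.220, with repeats as 1 sample 0.726), and 28.8% of contigs were called lower. The other probe of PATC147735 went the opposite way, at 8.29 and 8.56 in the flower and from 7.48 to 7.93 in the leaf. The call of PATC149247 was lost with repeats as 1 sample (adjusted p = 0.378), without the 2nd leaf array (-0.44) and without the 2nd flower array (-0.41). On the root arrays of both genotypes PATC149247 and the brighter probe of PATC147735 were at the floor after normalisation. PATC149247 passed as well above background on 1 of 4 root arrays, at an intensity of 15.1, and the brighter probe of PATC147735 on none. The other probe of PATC147735 passed on 1 root array of each genotype, at levels of 5.71 in *P. aphrodite* and 4.98 in V3. The flower of *P. aphrodite* exceeded its root by at least 18.7-fold for PATC149247 (adjusted p = 4.38e-09), and for PATC147735 by 4.30 on the log2 scale with the brighter probe and by 3.41 with the other (adjusted p = 6.96e-10 and 9.18e-05). With repeats as 1 sample the adjusted p was 0.0981 for both contigs, and 6.66% of contigs were called higher by over 4-fold. The size depends on the processing at the dim end, as with normexp it was 6.48-fold for PATC149247 and 6.49-fold for PATC147735. Unamplified flower and root were scanned in different batches, which cannot be told apart from the tissue. V3 flower and V3 root, and the roots of the genotypes, were not tested, since neither side was well above background on all arrays with the probes used.

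**Figure D3:**
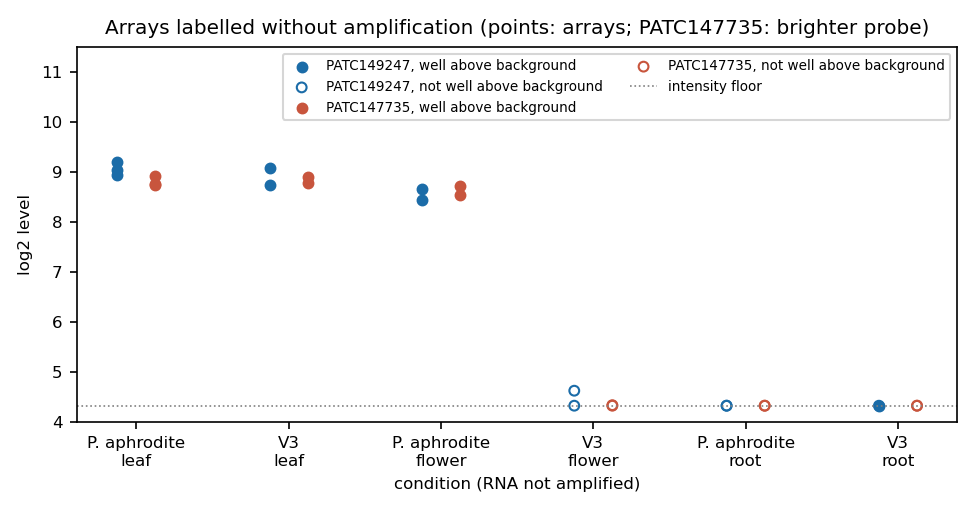
Normalised log2 level (vertical axis) of PATC149247 and of the brighter probe of PATC147735 on the 13 arrays of unamplified RNA, by tissue and genotype (horizontal axis), with points for arrays, open where not well above background. Leaves of both genotypes and the *P. aphrodite* flower lie between 8.44 and 9.20, while V3 flower and both roots lie at or near the floor of 4.32.

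The members followed each other closely. Over the 37 amplified arrays on which both were well above background, Pearson's r of the log2 levels was 0.9903 and Spearman's rho 0.9874. The arrays share conditions and slides, so this is a description. The log2 difference between the contigs varied with an SD of 0.331 over these arrays, from -0.38 in a root array to 1.56 in a stalk array. With the other probe of PATC147735 the SD was 0.221, and r was 0.9955, nearly as high as the 0.9970 between the 2 probes of PATC147735. Intensities of different probes do not compare transcript levels, so the size of the difference is not read.

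**Figure D4:**
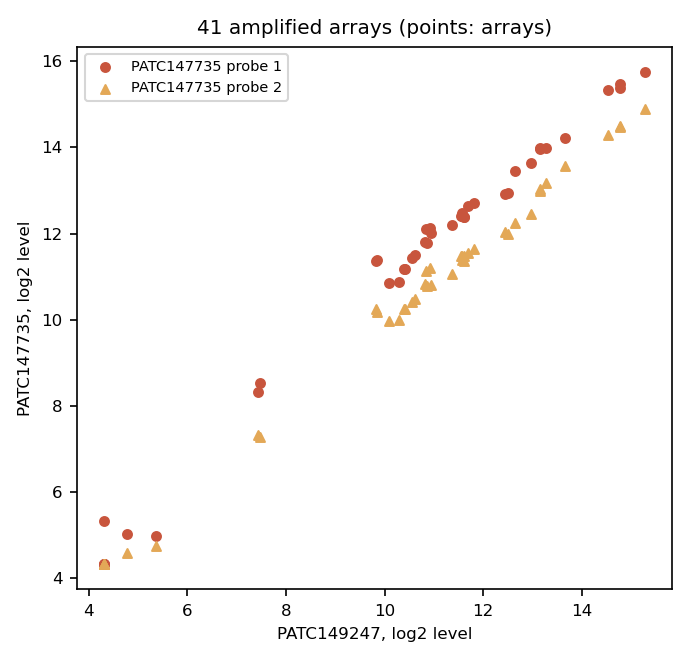
Normalised log2 level of PATC147735 (vertical axis, both probes) against that of PATC149247 (horizontal axis) on the 41 arrays of amplified RNA, 1 point per array and probe. Both probes rise with PATC149247 over the whole range, with r of 0.9903 and 0.9955 over the 37 arrays above background.

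Among 35602 contigs compared over the 20 condition means, PATC147735 was the contig most like PATC149247 (r = 0.9948), and it was 2nd in the reverse search. The median r over all contigs was -0.0459 for PATC149247 and -0.0500 for PATC147735, and only 7 and 9 contigs exceeded 0.9. Besides the members, PATC168724 had r of 0.9947 with PATC149247 and 0.9954 with PATC147735. PATC139822 had 0.9936 and 0.9904. The next contig, PATC129119, followed at 0.9385 and 0.9374, so 4 contigs formed a tight group apart from the rest. The main text of the study names none of the other 3 contigs. Petal and lip are among the 20 conditions, and the likeness is a description over condition means.

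The contigs PATC168724 and PATC139822 repeated the details of the pattern. PATC168724 was at 15.58 in the petal, 10.81 in the lip and 8.39 in V3 flower. PATC139822 was at 15.46, 10.57 and 8.46. Without amplification PATC168724 was at 9.0 in *P. aphrodite* flower and not well above background in V3 flower. PATC139822 was at 8.35 and, near the floor, at 4.81. PATC129119 was at 12.30 in the petal and at 9.08 in the lip. Whether the probes of these contigs match shared sequence or a common transcript was not tested, since no probe sequence was used here.

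**Figure D5:**
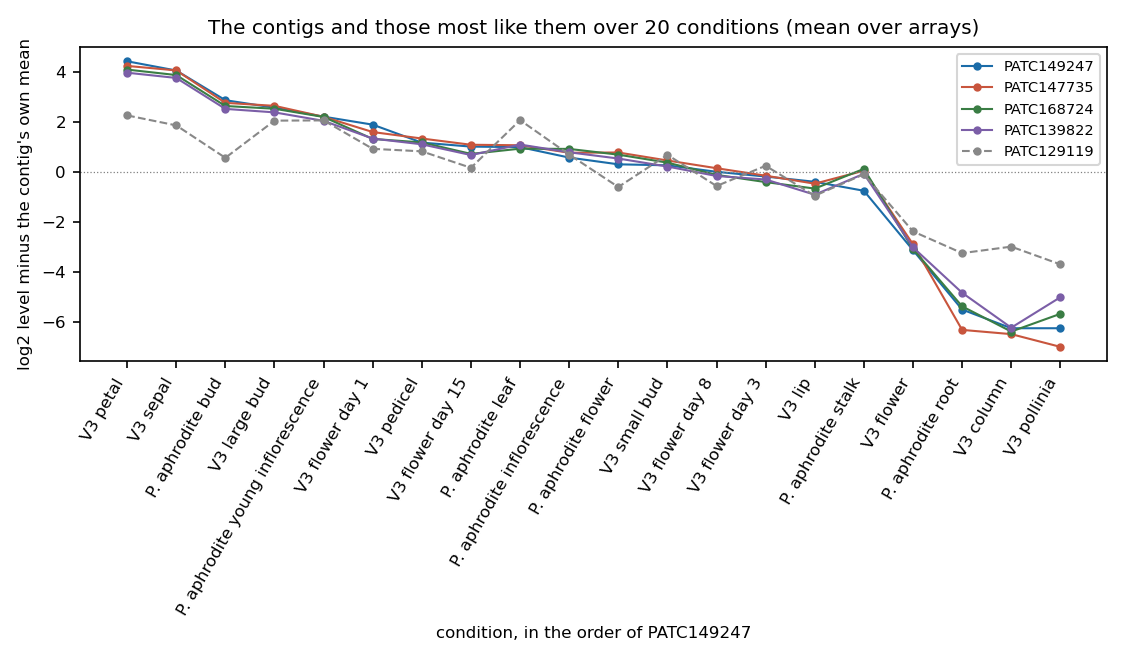
Log2 level minus the contig's own mean over conditions (vertical axis) of the members and the 3 contigs most like them over the 20 conditions of amplified RNA (horizontal axis, in the order of PATC149247), 1 line per contig. PATC168724 and PATC139822 run with the members (r from 0.9904 to 0.9954), and PATC129119, dashed, departs in several conditions (r of 0.9385 and 0.9374).

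The study discussed 6 further contigs with the members for a difference between petal and lip, measured in *P. equestris*, another species. On these arrays each of them was below the members in that difference. It was 3.53 for the acyltransferase PATC134853, at least 1.68 for the acyltransferase PATC196836, which was not well above background in the lip, 1.26 and 1.21 for the tyrosine decarboxylases PATC149447 and PATC138942, 0.66 for the receptor-type kinase PATC139333, and -2.53 for the phenylalanine ammonia-lyase PATC156804, the entry enzyme of phenylpropanoid synthesis. Positive values are higher in petal. In the order of contigs by this difference PATC134853 stood at rank 154 of 31248, against 43 and 48 for the members. The study reported PATC196836 and both tyrosine decarboxylases as higher in the lip, the opposite direction to these V3 arrays.

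Outside petal and lip, the 6 went in different directions in some comparisons and in the same direction in others. Counts among so few contigs are a description. At 1 DAP 2 of the 6 were higher than in the V3 flower and 4 were lower, with 41.8% and 40.3% of all contigs called in these directions. PATC134853 rose 8.98-fold and PATC196836 4.58-fold, while PATC156804 fell 12.6-fold (adjusted p = 8.56e-20, 7.14e-18 and 4.20e-26, with repeats as 1 sample 8.68e-06, 9.60e-06 and 3.56e-07). In the *P. aphrodite* flower all 6 were higher than in the leaf, led by PATC134853 at 88.9-fold (adjusted p = 2.60e-27, with repeats 1.19e-07; 44.3% of contigs called higher), whereas PATC149247 was lower and PATC147735 was not called. In small against large buds PATC134853 was 20.6-fold lower (adjusted p = 5.35e-22, with repeats 4.93e-06), the same direction as the members, and 4 of the 6 were lower, 1 higher and 1 not called, with 28.2% of contigs called lower. With repeats as 1 sample the call of PATC139333 in flower against leaf was lost (adjusted p = 0.271), as was that of PATC138942 in the buds (adjusted p = 0.175).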

How the data were processed

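Scanner files of 54 custom arrays on 16 slides, scanned in 8 batches, and a table of log2 values were used. The authors deposited processed intensity values from Feature Extraction 10.7.1.1, which are background-subtracted, with flags (other values) for outlier spots and spots well above background. The log2 values deposited by the authors are those processed intensities on the log2 scale after raising values under 20 to 20, less a constant per array within 0.00152 of the 75th percentile (largest departure 2.71e-06), so they are not quantile normalized, which the study's methods name. Per the study, RNA was amplified before labelling; the labels give 13 arrays without it.

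Intensities were floored at 20, put on the log2 scale, averaged over unflagged spots, and quantile normalized in R 4.3.3 among amplified and among unamplified arrays apart. Where a contig had 2 probes, the brighter one stood for it. Contigs well above background (at least 0.5 of the spots) on every array of a compared condition were tested with limma 3.58.1, 1 coefficient per condition, each array as 1 sample, 21 and 7 residual degrees of freedom, Benjamini-Hochberg over all contigs tested, called under 0.05. Fitting all conditions pools their spread. Where no array of a condition measured a contig above background there is only a bound, and "at least" folds use the mean of the higher of that array's lowest signal above background and the contig's own. These bounds hold only for the floored, quantile normalised values, and normexp gave lower folds. Arrays were compared with replicate spots by the ratio of their median differences, which sets means of 2 spots against single spots, and those with a ratio up to 1 were merged as an alternative. The number of arrays limits the precision.

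Named were the members, the 6 contigs discussed with them, 5 organ contigs and the 3 contigs nearest by Pearson's r. Members and lists were chosen with earlier results of these data known. Tests were tried on simulated data. Alternatives were scaling by the 75th percentile, normexp (offset 50), a floor of 5, no filter, a raw signal of 500, other probes, fewer conditions in the fit, merged arrays, scan batch or slide as blocks, the authors' values and each array left out. Arrays of other *Phalaenopsis* species were not analysed here.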

Additional observations from a re-analysis of the deposited data

Results flagged for a closer look

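The change from leaf to flower on unamplified arrays differed between the genotypes for both contigs by the test of the difference itself. V3 minus *P. aphrodite* was -4.33 on the log2 scale for PATC147735 and -3.93 for PATC149247 (limma, adjusted p = 7.86e-08 and 7.48e-07). The change from root to flower differed by -4.30 for PATC147735 and by -4.08 for PATC149247 (adjusted p = 1.22e-07 and 8.59e-07). With the other probe of PATC147735 the differences were -3.18 and -2.95 (adjusted p = 0.00321 and 0.00729). The probes used were at the floor on the root arrays, so the second difference rests on the flowers. They were at or near the floor on the V3 flower arrays as well, which limits both differences and makes the adjusted p too small. With repeat arrays counted as 1 sample, 1 residual degree of freedom remained and the adjusted p was 0.585 and 0.512.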

How the results depend on the processing

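Of 577 values recomputed under other settings for 52 results, 553 kept their direction and side of the threshold, 13 lost the call, 7 gained one and 4 changed sign. Counting repeat arrays as 1 sample ended the call of PATC149247 in *P. aphrodite* flower minus leaf, -0.69 amplified and -0.51 unamplified, and, with 1 residual degree of freedom, those on unamplified arrays for PATC147735 and PATC149247: *P. aphrodite* flower minus root (4.30 and 4.22), V3 flower minus leaf (-4.51 and -4.44), flower of V3 minus *P. aphrodite* (-4.30 and -4.08), and the genotype difference in flower minus leaf (-4.33 and -3.93) and flower minus root (-4.30 and -4.08). For PATC147735, amplified *P. aphrodite* flower minus leaf gained a call with the 75th percentile (-0.30), normexp (-0.27), a floor of 5 (-0.29), the authors' table (-0.30), the other probe (-0.31), the mean of probes (-0.30) and only the compared conditions (-0.29). A floor of 5 ended the unamplified call of PATC149247 (-0.51). The other probe and the mean of probes turned unamplified *P. aphrodite* flower minus leaf of PATC147735 to 0.72 and 0.27, and V3 minus *P. aphrodite* leaf to -0.14 and -0.052. The cause was not tested. None of these sign changes concerned a called value in the fit as reported.

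Leaving out each array in turn kept 230 of 234 values. Unamplified *P. aphrodite* flower minus leaf of PATC149247 ranged from -0.62 to -0.41, and V3 minus *P. aphrodite* leaf from -0.019 to 0.095 for PATC147735 and from -0.32 to 0.020 for PATC149247. Leaving out the petal and lip arrays, chosen after seeing the data, and blocks for scan batch (26 results that could be estimated) or slide (correlation 0.444 and 0.196) changed no call. A raw signal of 500 left 45 results. No paired analysis was possible because the labels give no replicate numbers that pair arrays. Signals below the floor, as in column, pollinia and unamplified V3 flower, limit the folds to bounds, which change with the processing.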
